A study of Mus musculus with 16 samples.

Results

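The 37 genes of the mouse mitochondrial genome were examined in epididymal white adipose tissue (eWAT) of 16 male db/db mice, a model of obesity and type 2 diabetes. They are all the genes that the deposited table of 55573 genes places on chromosome MT, and they comprise 2 rRNA, 13 mRNA and 22 tRNA genes. Every mouse was C57BLKS/J-db/db, a strain without a working leptin receptor, and had received 1 of a pair of AAV8 vectors at 4 weeks of age. AAV8-LRG1-FL carried a FLAG-tagged LRG1, a secreted glycoprotein made by adipocytes among other cells, behind the ubiquitous CB7 promoter, and AAV8-eGFP was its control. The groups were LRG1 mice of week 7, eGFP mice of week 7, LRG1 mice of week 10 and eGFP mice of week 10, with 4 mice in each and the week standing for age. Mice were caged by treatment, and which mice shared a cage is not given, so cage and vector cannot be told apart.

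The mitochondrial genome is a small circle that is transcribed almost in full from both strands into long precursor RNAs. tRNA genes lie between most of the rRNA and mRNA genes, and the precursors are cut at the tRNAs to release the separate RNAs. The mRNAs encode core subunits of respiratory complexes I, III, IV and V, the rRNAs build the mitochondrial ribosome, and the polymerase and all processing factors are imported from the nucleus. White adipocytes need this machinery for fuel oxidation and for the precursors of lipid synthesis.

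Libraries held 45376227 to 67539937 counts. Levels are in CPM, counts scaled to a common library total by TMM, edgeR's trimmed mean of M values. Lrg1 itself, at 286 to 624 CPM over the 8 LRG1 libraries against 86.2 to 115 CPM over the 8 eGFP libraries, was on the side of the label in each. Mature adipocyte markers, 15 genes, summed to 14644 CPM or more in every library, and epididymis and testis markers to 1.67 CPM or less. Whether RNA was selected by poly(A) or depleted of rRNA is not given. Rn7sk, which has no poly(A) tail, was at 7398 to 11217 CPM, so such RNA was in the libraries. A pair of week 10 libraries stood apart. Lars2, CT010467.1, Mir6236, Gm15564 and Gm25732, 5 nuclear genes singled out after their values were seen, took 2.68% of the counts of LRG1 replicate 2 and 9.09% of those of eGFP replicate 3, against at most 0.259% in the other 14 libraries. The week 10 shares, ratios and counts of calls below are therefore also given without these libraries.

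The 3 RNA classes differed by orders of magnitude. At week 7 mitochondrial rRNA took 27.1, 30.4, 30.3 and 29.2% of all counts in LRG1 mice, against 25.6, 24.4, 24.1 and 25.9% in eGFP mice. Mitochondrial mRNA took 3.551, 3.846, 3.723 and 3.803% in LRG1 mice, against 2.74, 2.72, 2.65 and 2.87% in eGFP mice. Both shares were higher in each LRG1 library than in each eGFP library. The mean rRNA share was 29.2% ± 1.51 in LRG1 mice and 24.97% ± 0.864 in eGFP mice (SD, n = 4 each), and the mean mRNA share 3.73% ± 0.130 and 2.75% ± 0.0918. The tRNA genes together took only 0.0134% ± 0.000992 in LRG1 mice and 0.0101% ± 0.000648 in eGFP mice, again without overlap. Set against nuclear counts alone, the LRG1 means were also above the eGFP means. This follows from the shares, since a larger mitochondrial share leaves fewer nuclear counts, and it is not a separate check. A sum over members is described here and was not tested.

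At week 10 the class shares differed less between LRG1 and eGFP mice. The rRNA share was 26.9% ± 1.52 in LRG1 mice and 26.2% ± 1.39 in eGFP mice (SD, n = 4 each), a difference within the spread. The mRNA share was 3.18, 2.76, 3.26 and 3.04% in LRG1 mice, against 2.71, 2.34, 2.68 and 2.80% in eGFP mice. Its lowest LRG1 library, replicate 2, lay below the highest eGFP library, so the groups overlapped. Without both libraries that stood apart they did not, at 3.04 to 3.26% in 3 LRG1 mice and 2.34 to 2.80% in 3 eGFP mice. The tRNA share did not overlap, at 0.0118% ± 0.000686 in LRG1 mice and 0.00934% ± 0.000833 in eGFP mice. Leaving out both libraries, the tRNA share was still apart and the rRNA share still overlapped (26.7 to 28.1% in LRG1 mice, 24.3 to 26.9% in eGFP mice). With the 5 nuclear genes taken out of the totals, the mRNA share was 3.08% ± 0.183 in LRG1 mice and 2.70% ± 0.256 in eGFP mice, and the rRNA share 27.1% ± 1.22 and 26.9% ± 2.47. The mRNA share then overlapped (2.84 to 3.26% in LRG1 mice, 2.35 to 2.95% in eGFP mice).

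**Figure D1:**
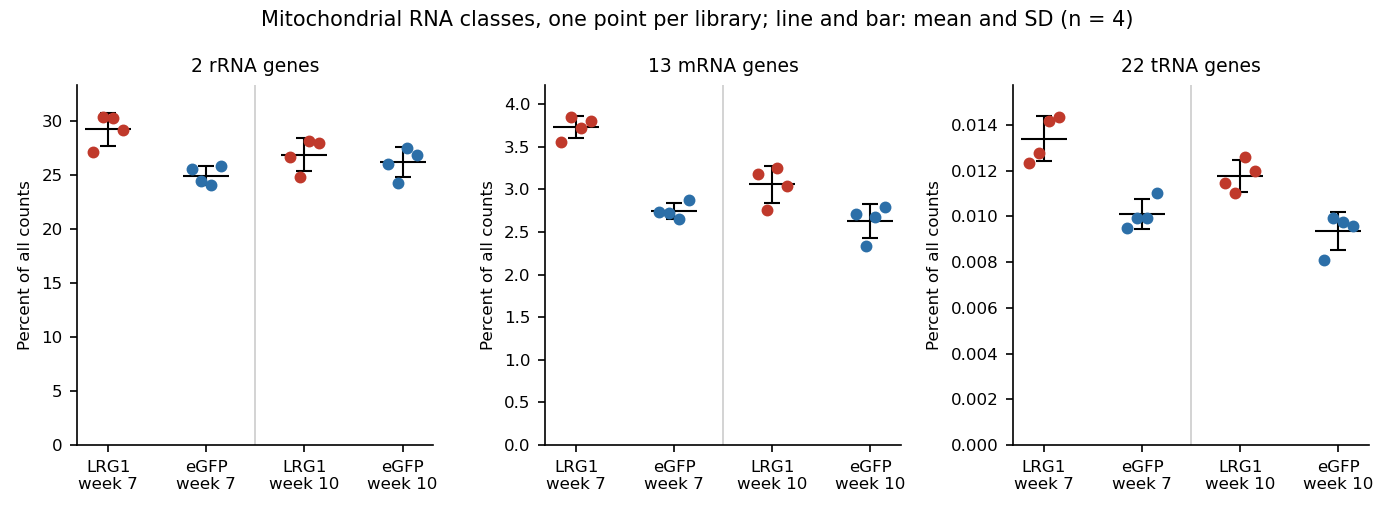
Percent of all counts (vertical axes) taken by the mitochondrial rRNA, mRNA and tRNA genes, with 1 point for each of the 16 libraries and the mean ± SD of each group of 4. At week 7 the LRG1 points lie above all eGFP points in each panel, with mean rRNA shares of 29.2% and 24.97%, and at week 10, with all libraries, only the tRNA panel keeps them apart.

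The levels of single genes were compared per kilobase of gene, in CPM per kilobase over all 16 libraries. mt-Rnr2, the rRNA of the large ribosomal subunit (MT from 1094 to 2675), was the highest at 153766 CPM per kilobase and held 80.9% of all mitochondrial counts. mt-Rnr1, the rRNA of the small subunit (MT from 70 to 1024), followed at 27764 CPM per kilobase. Among the mRNAs, mt-Co1 (complex IV, MT from 5328 to 6872) stood at 9597 CPM per kilobase, mt-Nd1 (complex I, MT from 2751 to 3707) at 6032, and mt-Cytb (complex III, MT from 14145 to 15288) at 3795. mt-Nd2 (complex I, MT from 3914 to 4951) was at 2492 CPM per kilobase. Lower still were mt-Nd5 (MT from 11742 to 13565) at 911, mt-Nd6 (minus strand, MT from 13552 to 14070) at 765 and mt-Nd4 (MT from 10167 to 11544) at 744 CPM per kilobase, all subunits of complex I. The ranges of these last 3 over libraries, 501 to 1462 CPM per kilobase, overlapped.

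The other 6 mRNAs were nearly absent from the counts. mt-Co2 and mt-Co3 of complex IV, mt-Atp6 of complex V, and mt-Nd3 and mt-Nd4l of complex I stood at 3.17, 2.65, 2.92, 1.79 and 0.710 CPM per kilobase, and mt-Atp8 of complex V at 0.532 CPM per kilobase. mt-Co2 had 36 to 212 counts in a library and mt-Atp8 1 to 12, while mt-Co1, a neighbour of mt-Co2 in the same complex and from the same precursor, had 638327 to 1208795. These 6 genes are consecutive, from mt-Co2 at MT position 7013 to mt-Nd4l at 10173. Low counts were not particular to this stretch among the tRNA genes, since mt-Tr within it had 3 to 19 counts in a library and mt-Tv, mt-Tw and mt-Ts2 outside it 1 to 12. The lowest tRNA genes lay in or just before it. mt-Ts1, mt-Tk and mt-Tg had 4, 2 and 1 counts in all 16 libraries together. mt-Td had 0 of 948888410, which allows a level of up to 0.00316 CPM by a limit of 3 counts that covers counting error only.

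**Figure D2:**
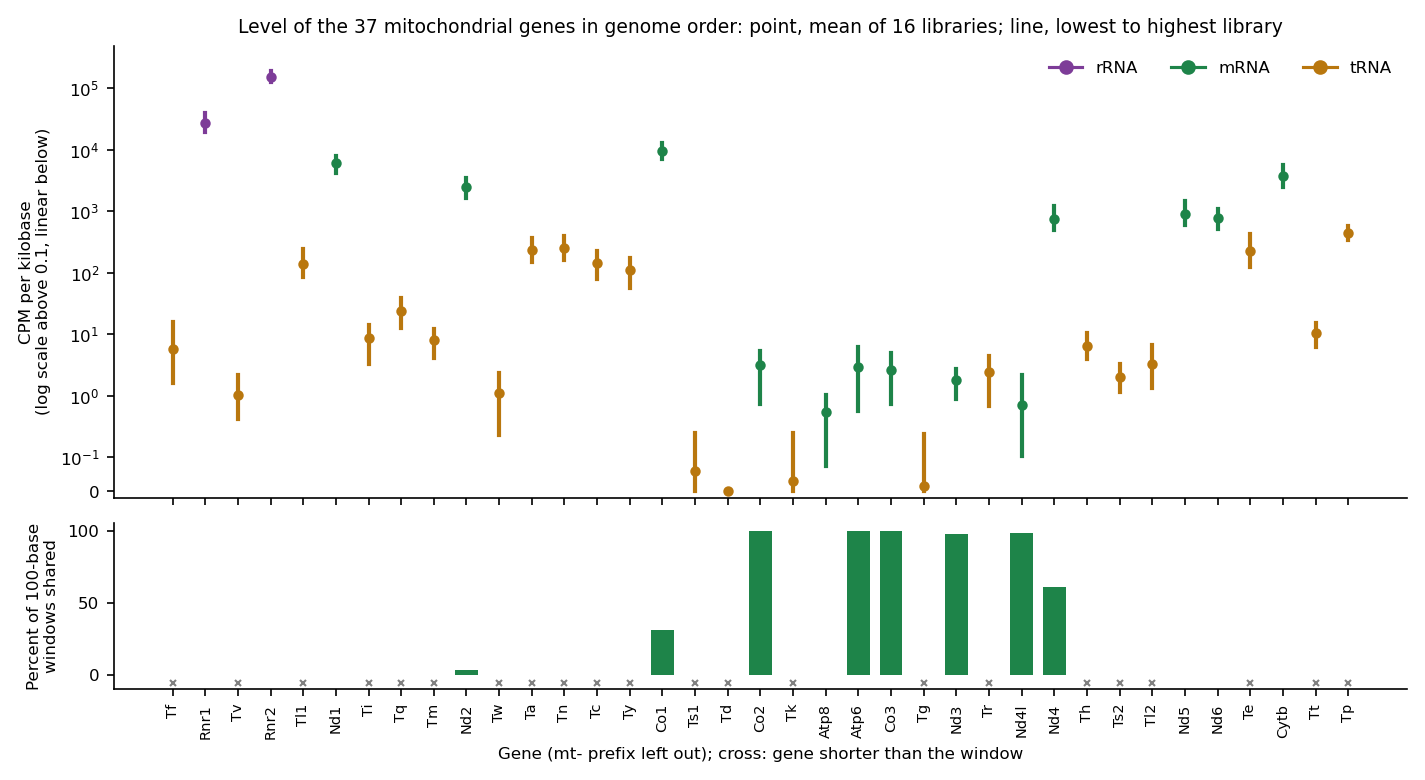
Upper panel, CPM per kilobase of each of the 37 genes in genome order (log scale above 0.1, linear below), with the mean of 16 libraries as a point and the lowest to the highest library as a line. Lower panel, percent of each gene's 100-base windows that also occur in a nuclear transcript, where a cross marks genes too short for a window. The genes from mt-Co2 to mt-Nd4l stand at 3.17 CPM per kilobase or less, and the shared percentage of the mRNAs there is near 100, except for mt-Atp8 at 0.

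The stretch has a nearly identical copy in the nuclear genome. Chromosome 1 of GRCm38 carries a run of 7 annotated pseudogenes on the minus strand, from 24611535 to 24616197, named Gm28439, Gm10222, Gm28438, Gm28437, Gm10925, Gm28661 and Gm29216. They match parts or all of mt-Nd4, mt-Nd4l, mt-Nd3, mt-Co3, mt-Atp6, mt-Co2 and mt-Co1. In the GENCODE transcripts, 99.5% of the 100-base windows of mt-Co2 were also found in a nuclear transcript, as were 99.5% of those of mt-Atp6, 99.9% of mt-Co3, 97.6% of mt-Nd3 and 98.5% of mt-Nd4l. The shares were 60.8% for mt-Nd4, 30.8% for mt-Co1 and 3.19% for mt-Nd2, and 0 for mt-Nd1, mt-Nd5, mt-Nd6, mt-Cytb and both rRNAs. For mt-Atp8 the share was also 0, but its copy would lie between Gm10925 and Gm28661, in a gap that the transcripts do not cover, and was not compared. Copies of the tRNA genes mt-Ts1, mt-Td, mt-Tk, mt-Tg and mt-Tr would lie in such gaps as well and were not compared. A read from a shared window can be placed in either locus. How such reads were treated in counting is not given, so the levels of these 6 mRNAs, and those of mt-Nd4 and mt-Co1 in part, are uncertain. The same may hold for the low counts of these tRNA genes and for the limit given for mt-Td.

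The sequences show how little separates the copies. The first 90 bases of mt-Co2 (MT:7013-7102, plus strand, GRCm38) occur base for base in Gm28661 (chr1:24615476-24615565, minus strand), which matches mt-Co2 over 681 bases with 0 mismatches:
mt-Co2: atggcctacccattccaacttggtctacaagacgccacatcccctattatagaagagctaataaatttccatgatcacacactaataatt
The first 91 bases of mt-Nd3 (MT:9459-9549, plus strand) and of Gm28438 (chr1:24613029-24613119, minus strand) are shown since they hold the only difference between both genes in 345 aligned bases. It is in capitals, T3C counted from the 5′ end of mt-Nd3:
mt-Nd3: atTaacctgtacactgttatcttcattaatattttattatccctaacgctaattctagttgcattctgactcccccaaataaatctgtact
Gm28438: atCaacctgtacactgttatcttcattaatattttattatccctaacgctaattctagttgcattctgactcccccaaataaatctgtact
The copies themselves were also low. Gm28661 had 16 to 75 counts in a library. Gm28438, with 158 to 333, had more than mt-Nd3, which had 21 to 59. With the CPM of the whole gene divided by only the windows that no nuclear transcript shared, mt-Nd4 came to 2044 CPM per kilobase. Over all its windows it was 802, and for mt-Co1 the values were 14827 and 10254. Counts within those windows were not measured, so 2044 and 14827 hold only if no counted read came from a shared window.

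For tests, 29 of the 37 genes passed the filter on low counts: both rRNAs, 12 mRNAs and 15 tRNAs. mt-Atp8 and the tRNA genes mt-Tv, mt-Tw, mt-Ts1, mt-Td, mt-Tk, mt-Tg and mt-Ts2 did not. Genes were called at an adjusted p below 0.01 in edgeR's quasi-likelihood test over all 20822 genes. At week 7, 11 of the 29 rose in LRG1 mice and 0 fell, where 7.37% of all genes tested rose and 10.7% fell. The log2 fold change was above 0 for all 29 and had a median of 0.73, against 0.01 over all genes tested. Without TMM, on library size alone, it was above 0 for 28 of them. In 17 of the 29, all 4 LRG1 libraries lay above all 4 eGFP libraries, as in 18.6% of all genes tested. Both rRNAs, mt-Co1, mt-Cytb, mt-Nd1, mt-Nd2, mt-Nd4, mt-Nd5 and mt-Nd6 shared at most 60.8% of their 100-base windows with nuclear transcripts. Of these genes, all but mt-Rnr2 and mt-Co1 rose. The genes share libraries and precursor RNAs and are not independent of each other.

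The log2 fold changes of both rRNAs at week 7 were unequal, and the difference between them was not tested. mt-Rnr1 was at 38388, 30957, 32802 and 30928 CPM in LRG1 mice, against 20879, 18881, 19136 and 21551 CPM in eGFP mice. Its log2 fold change was 0.73 (SE 0.13, adjusted p = 9.0e-04). mt-Rnr2 was at 231192, 285429, 299229 and 272543 CPM in LRG1 mice, against 218957, 214294, 199891 and 219448 CPM in eGFP mice. All LRG1 libraries lay above the eGFP ones here too, but the log2 fold change of 0.35 (SE 0.15, adjusted p = 0.089) was not called in edgeR. DESeq2 called mt-Rnr2 (adjusted p = 0.0079).

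The mRNAs of complex I that were well counted all rose at week 7. mt-Nd4 was at 1703, 1385, 1341 and 1457 CPM in LRG1 mice, against 730, 699.9, 763 and 819 CPM in eGFP mice, a log2 fold change of 0.97 (SE 0.11, adjusted p = 9.9e-06). mt-Nd5 was at 2666, 2124, 2168 and 2190 CPM in LRG1 mice, against 1100, 1196, 1194 and 1251 CPM in eGFP mice (log2 fold change 0.95, SE 0.11, adjusted p = 2.6e-05). The lowest LRG1 library of either gene was far above the highest eGFP library. mt-Nd6, the only mRNA read from the other strand, was at 573, 520, 522 and 526 CPM in LRG1 mice, against 263, 282, 289 and 308 CPM in eGFP mice (log2 fold change 0.91, SE 0.10, adjusted p = 9.0e-06). The strand setting of the counting is not given, so reads of mt-Nd6 and of the plus-strand precursor across it cannot be told apart. mt-Nd2 was at 3287, 3364, 3425 and 3586 CPM in LRG1 mice, against 1971, 1910, 2014 and 2118 CPM in eGFP mice (log2 fold change 0.77, SE 0.10, adjusted p = 4.5e-05). mt-Nd1, nearest to the rRNAs, was at 6221, 7268, 7669 and 7060 CPM in LRG1 mice, against 4883, 5230, 4912 and 5296 CPM in eGFP mice. Its groups were also apart, at a smaller log2 fold change of 0.47 (SE 0.11, adjusted p = 0.0052).

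The well-counted genes of complexes III and IV are mt-Cytb and mt-Co1, and the difference between them was not tested. mt-Cytb, the cytochrome b of complex III, was at 5580, 6500, 6059 and 6422 CPM in LRG1 mice of week 7, against 3068, 3165, 3248 and 3503 CPM in eGFP mice, and rose by a log2 fold change of 0.92 (SE 0.12, adjusted p = 4.8e-05). mt-Co1, the catalytic subunit of complex IV, was at 15263, 18899, 19626 and 18294 CPM in LRG1 mice, against 13678, 13491, 11738 and 13485 CPM in eGFP mice. It did not overlap between groups, and its log2 fold change of 0.46 (SE 0.13, adjusted p = 0.015) missed the threshold in edgeR. mt-Co1 was called with DESeq2 (adjusted p = 0.0011), limma-voom (0.0088), upper quartile scaling (0.0056) and in the 8 week 7 libraries alone (0.0026). Of the mRNAs that shared nearly all windows with nuclear transcripts, mt-Nd3 had a log2 fold change of 0.84 (adjusted p = 0.020). The log2 fold change was 0.91 for mt-Atp6 (adjusted p = 0.075) and 0.61 for mt-Co3 (adjusted p = 0.21). For mt-Co2 it was 0.57 (adjusted p = 0.29) and for mt-Nd4l 0.44 (adjusted p = 0.62). None of these 5 was called in edgeR at these counts. mt-Nd3, whose groups did not overlap, was called with DESeq2 (adjusted p = 0.0052) and limma-voom (0.0088). The eGFP library replicate 3 had 0.508 CPM of mt-Co2, against 2.19 to 2.96 CPM in the other eGFP libraries of week 7. It was also the lowest of them in mt-Atp6 (0.381, against 1.98 to 2.34 CPM) and mt-Co3 (0.565, against 2.25 to 2.85 CPM). The same held for mt-Nd3 (0.3105, against 0.543 to 0.617 CPM) but not for mt-Nd4l.

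Of the tRNA genes, 4 of the 15 tested rose at week 7 and 0 fell. They are mt-Te, mt-Tl1, mt-Tn and mt-Tc, for glutamate, leucine, asparagine and cysteine. Their genes are printed below in the 5′ to 3′ direction with the anticodon in capitals, together with mt-Tp, for proline, which had the highest level per length of all tRNA genes (449.7 CPM per kilobase):
mt-Te: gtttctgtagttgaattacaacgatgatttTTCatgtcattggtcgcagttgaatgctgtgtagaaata
mt-Tl1: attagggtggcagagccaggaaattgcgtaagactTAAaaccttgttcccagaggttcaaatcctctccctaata
mt-Tn: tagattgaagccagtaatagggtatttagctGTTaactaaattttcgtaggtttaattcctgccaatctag
mt-Tc: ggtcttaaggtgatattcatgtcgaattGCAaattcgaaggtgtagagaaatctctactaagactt
mt-Tp: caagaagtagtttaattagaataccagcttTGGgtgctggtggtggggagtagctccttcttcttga
They lie at MT:14071-14139, MT:2676-2750, MT:5089-5159, MT:5192-5257 and MT:15356-15422 of GRCm38, mt-Tl1 on the plus strand and the other 4 on the minus strand. The sequences are GENCODE transcripts and do not include the CCA tail of mature tRNAs, which is added after cutting.

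mt-Te was at 29.2, 21.1, 21.6 and 19.6 CPM in LRG1 mice of week 7, against 8.67, 10.2, 11.5 and 11.9 CPM in eGFP mice. It had the largest log2 fold change of the 29, 1.12 (SE 0.14, adjusted p = 2.9e-05). mt-Tl1 was at 10.8, 12.3, 17.9 and 16.4 CPM in LRG1 mice, against 7.45, 10.2, 7.38 and 9.21 CPM in eGFP mice (log2 fold change 0.75, SE 0.17, adjusted p = 0.0039). The groups of both were apart. mt-Tn had a log2 fold change of 0.58 (SE 0.15, adjusted p = 0.0080) and mt-Tc of 0.55 (SE 0.12, adjusted p = 0.0032). mt-Tp, with 23.2 to 39.0 CPM over all libraries, had a log2 fold change of 0.22 (SE 0.11, adjusted p = 0.15) and overlapped between groups. The 8 tRNA genes of the minus strand held 87.8% of all tRNA counts (85.6 to 89.4% in a library). As for mt-Nd6, reads from these genes and from the precursor of the opposite strand cannot be told apart.

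**Figure D3:**
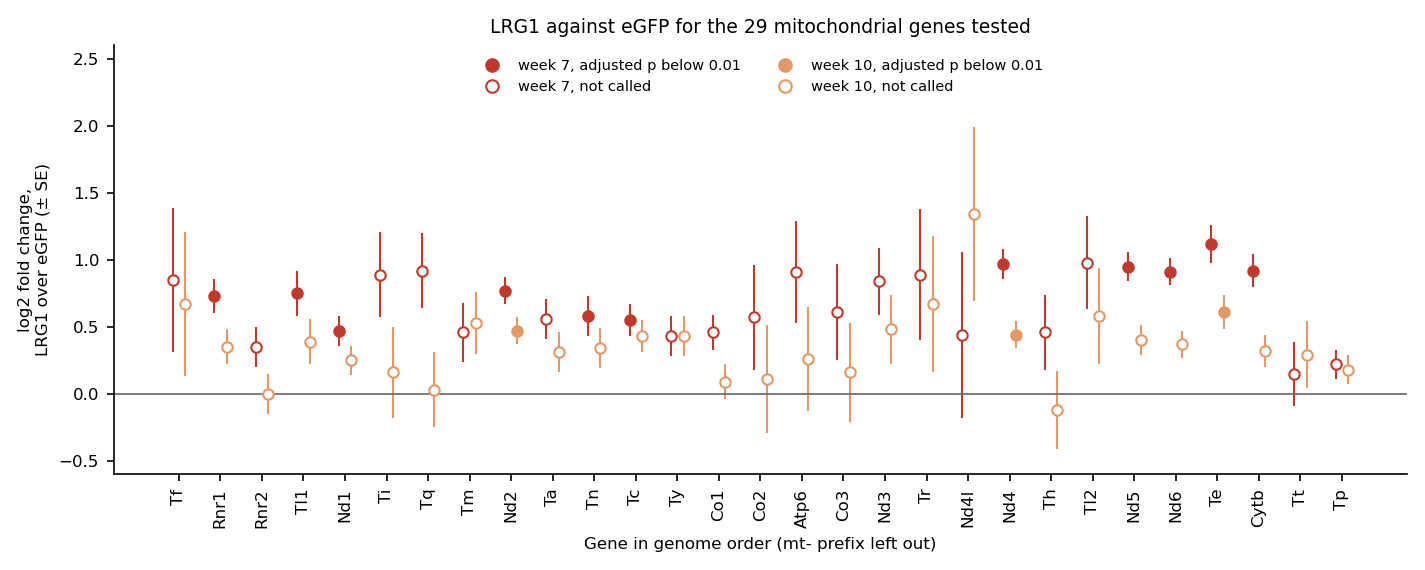
log2 fold change of LRG1 over eGFP ± SE for the 29 mitochondrial genes tested, in genome order, at week 7 and week 10, with filled points for genes called at an adjusted p below 0.01. All 29 week 7 points are above 0 and 11 are filled, and 3 week 10 points are filled (mt-Nd2, mt-Nd4 and mt-Te).

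Of the 11 calls at week 7, 7 held under every alternative run, each library left out in turn included: mt-Rnr1, mt-Nd2, mt-Nd4, mt-Nd5, mt-Nd6, mt-Cytb and mt-Te. mt-Nd1, mt-Tl1, mt-Tn and mt-Tc were lost in some, and the count was 7 without eGFP replicate 1, eGFP replicate 3, LRG1 replicate 3 or LRG1 replicate 4.

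At week 10, 3 of the 29 genes rose in LRG1 mice and 0 fell, where 3.66% of all genes tested rose and 5.24% fell. The median log2 fold change of the 29 was 0.35, against 0 over all genes tested, and 27 were above 0. All 4 LRG1 libraries lay above all 4 eGFP libraries in 5 of the 29, and in 9.96% of all genes tested. mt-Nd2 was at 2995, 2483, 3068 and 2891 CPM in LRG1 mice, against 2122, 1736, 2220 and 2198 CPM in eGFP mice (log2 fold change 0.47, SE 0.10, adjusted p = 0.0045). mt-Nd4 was at 1109, 932, 1114 and 1167 CPM in LRG1 mice, against 778, 691, 878 and 846 CPM in eGFP mice (log2 fold change 0.44, SE 0.10, adjusted p = 0.0087). mt-Te was at 19.3, 14.5, 18.6 and 20.1 CPM in LRG1 mice, against 11.2, 11.1, 12.9 and 12.4 CPM in eGFP mice (log2 fold change 0.61, SE 0.13, adjusted p = 0.0060). None of the 3 overlapped, and replicate 2 was the lowest LRG1 library in each.

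The other well-counted genes of week 10 were not called. mt-Nd6 had a log2 fold change of 0.37 (SE 0.10, adjusted p = 0.014), mt-Nd5 of 0.40 (SE 0.11, adjusted p = 0.019), mt-Cytb of 0.32 (SE 0.12, adjusted p = 0.057) and mt-Rnr1 of 0.35 (SE 0.13, adjusted p = 0.072). mt-Nd1 was at 0.25 (SE 0.11), mt-Co1 at 0.09 (SE 0.13) and mt-Rnr2 at 0.00 (SE 0.15), with overlap between groups in each. mt-Rnr2 was highest in eGFP replicate 3, at 298229 CPM, against 204907 to 239766 CPM in the other eGFP libraries and 225997 to 263844 CPM in LRG1 mice. The week 10 calls rested on few libraries. Their number was 0 without eGFP replicate 1 or without LRG1 replicate 1, 3 or 4, then 1 without eGFP replicate 3, 2 without eGFP replicate 2, 3 without eGFP replicate 4 and 4 without LRG1 replicate 2. It was 0 in a fit of the 8 week 10 libraries alone, where mt-Nd2 had an adjusted p of 0.061. Without both libraries that stood apart it was 4, with mt-Nd6 the addition.

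The LRG1 difference was smaller at week 10 than at week 7 for all but 3 of the 29 genes, but 0 of them passed the test of that difference in edgeR, where 0.327% of all genes tested did. At an unadjusted p below 0.05 there were 7. The share of all genes tested that passed this threshold was not computed, here or below, so such counts have no background to be read against. DESeq2 called 1 (mt-Nd6, log2 difference -0.54, adjusted p = 0.00998) and limma-voom 0. In edgeR mt-Nd6 had a log2 difference of -0.54 (SE 0.14, adjusted p = 0.086), mt-Cytb of -0.60 (SE 0.17, adjusted p = 0.12), mt-Nd4 of -0.53 (SE 0.15, adjusted p = 0.12) and mt-Nd5 of -0.55 (SE 0.16, adjusted p = 0.14).

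Between the weeks, 0 genes were called within either vector group. In LRG1 mice the median log2 fold change of week 10 over week 7 was -0.34, against 0 over all genes tested, of which 0.00961% were called. The 4 week 10 libraries lay below the 4 week 7 libraries in 10 of the 29 genes, and in 3.41% of all genes tested. They lay above in 0, where 3.64% of all genes tested did. mt-Cytb, for example, was at 4653, 3865, 4886 and 4332 CPM in LRG1 mice of week 10, against 5580, 6500, 6059 and 6422 CPM in LRG1 mice of week 7 (log2 fold change -0.47, SE 0.12, adjusted p = 0.24). In edgeR 19 genes had an unadjusted p below 0.05, with no share over all genes tested to set beside them. DESeq2 called 1 (mt-Nd4, -0.44, adjusted p = 0.0096) and limma-voom 0. In eGFP mice the median was 0.03, against -0.01 over all genes tested, of which 2.14% were called. All week 10 libraries lay above all week 7 libraries in 1 of the 29 (mt-Tp) and below in 1 (mt-Tc), as in 4.08% and 6.89% of all genes tested. There 4 genes had an unadjusted p below 0.05 in edgeR, and DESeq2 and limma-voom called 0. Without both libraries that stood apart, edgeR again called 0 for the difference in the LRG1 effect and 0 between weeks in either vector group. Both comparisons of weeks share their libraries with those of LRG1 with eGFP.

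The proportions between the mitochondrial RNAs were compared within each library, where the library total cancels. There were 7.64, 7.90, 8.13 and 7.67 rRNA counts for each mRNA count in LRG1 mice of week 7, against 9.33, 8.97, 9.07 and 8.997 in eGFP mice. At week 10 the ratio was 8.40, 8.99, 8.64 and 9.18 in LRG1 mice, against 9.61, 10.4, 10.3 and 9.62 in eGFP mice. Every LRG1 library lay below every eGFP library of its week, so leaving out the libraries that stood apart cannot change this order. The ratio of mt-Rnr2 to mt-Rnr1 did so too, at 8.29 ± 1.52 in LRG1 mice and 10.6 ± 0.507 in eGFP mice of week 7, and at 8.33 ± 0.791 and 10.5 ± 1.11 at week 10 (SD, n = 4 each).

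Along the plus-strand precursor, the fold changes of the mRNAs far from the rRNAs and of those nearer to them differed in size. The counts of mt-Nd4, mt-Nd5 and mt-Cytb over those of mt-Nd1, mt-Nd2 and mt-Co1, a ratio chosen after the values were seen, were 0.402, 0.339, 0.312 and 0.348 in LRG1 mice of week 7, against 0.238, 0.245, 0.279 and 0.267 in eGFP mice. At week 10 they were 0.326, 0.298, 0.304 and 0.328 in LRG1 mice, against 0.270, 0.282, 0.266 and 0.286 in eGFP mice. The groups did not overlap at either week. The ratios of mt-Nd4, mt-Nd5 and mt-Cytb to mt-Nd1 were also apart at week 7 but overlapped at week 10 with all libraries. For mt-Nd4 the week 10 ratio was 0.1701 to 0.2024 in LRG1 mice and 0.1501 to 0.1703 in eGFP mice. For mt-Nd5 it was 0.277 to 0.353 and 0.264 to 0.285, and for mt-Cytb 0.706 to 0.764 and 0.683 to 0.726. Leaving out both libraries that stood apart, mt-Nd4 (0.1741 to 0.2024 and 0.1584 to 0.1703) no longer overlapped. Neither did mt-Cytb (0.7516 to 0.7639 and 0.6834 to 0.7255), while mt-Nd5 still did (0.2837 to 0.3532 and 0.268 to 0.285). Distance alone did not order the genes, since mt-Nd2, upstream of mt-Co1, had the larger fold change of this pair at both weeks. mt-Nd6 made up 14.02 ± 1.67 of 1000 plus-strand mRNA counts in LRG1 mice and 11.3 ± 0.770 in eGFP mice of week 7, without overlap, and 14.1 ± 1.08 and 12.7 ± 0.475 at week 10, with overlap, also without the libraries that stood apart. With the strand setting unknown, this is a proportion of counts assigned to mt-Nd6, not of the strands. tRNA counts per 1000 mRNA counts overlapped at both weeks (3.59 ± 0.233 in LRG1 mice and 3.67 ± 0.160 in eGFP mice of week 7).

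**Figure D4:**
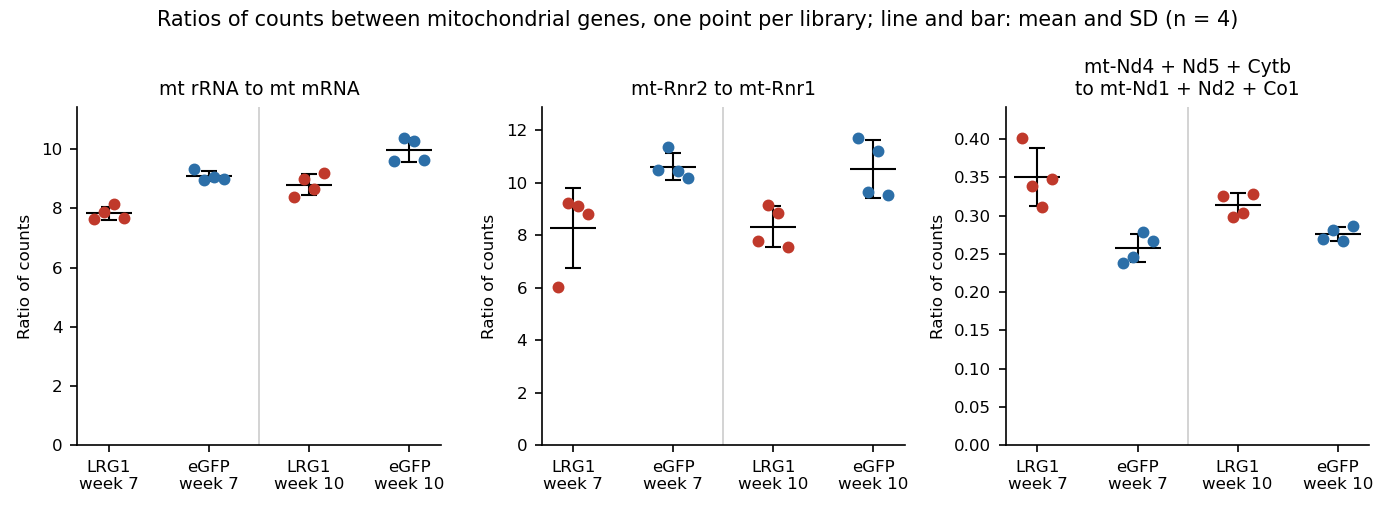
Ratios of counts within each of the 16 libraries (vertical axes) for mitochondrial rRNA over mRNA, mt-Rnr2 over mt-Rnr1, and the sum of mt-Nd4, mt-Nd5 and mt-Cytb over that of mt-Nd1, mt-Nd2 and mt-Co1, with the mean ± SD of each group of 4. LRG1 points lie below all eGFP points of their week in the first 2 panels and above them in the last, where the week 7 means are 0.350 and 0.257.

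Replicate 1 of the LRG1 mice of week 7 differed from its group in these proportions. It had the highest mt-Rnr1, mt-Nd4, mt-Nd5, mt-Nd6 and mt-Te of its group and the lowest mt-Rnr2, mt-Nd1, mt-Co1 and mt-Cytb. Its ratio of mt-Rnr2 to mt-Rnr1 was 6.02, against 8.81 to 9.22 in the other LRG1 mice. Without it, 12 mitochondrial genes were called at week 7.

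The nuclear genes that serve the mitochondrial genome are read against the shares over all genes tested, 7.37% higher and 10.7% lower at week 7 and 3.66% higher and 5.24% lower at week 10. The median log2 fold changes of the 5 lists in this paragraph were -0.07 to 0.04 at week 7 and -0.05 to 0.17 at week 10, against 0.01 and 0 over all genes tested. Of 11 genes of mitochondrial transcription, 1 rose at week 7, Tfb2m, a factor that opens the promoters for the polymerase (log2 fold change 0.50, adjusted p = 0.0027), and 1 at week 10, Mterf2, of the termination factor family (0.57, adjusted p = 0.0097). Of 15 genes of mitochondrial DNA maintenance, Sucla2 of the citric acid cycle, Mpv17 of the inner membrane and Top1mt, the mitochondrial topoisomerase, rose at week 7, and Dna2, a nuclease and helicase that also serves nuclear replication, fell (-1.33, adjusted p = 2.7e-05). Sucla2 (0.34, adjusted p = 0.0050) and Top1mt (0.51, adjusted p = 0.0075) rose at week 10 as well. Of 21 RNA processing genes, Grsf1, an RNA granule protein, rose at week 7 (0.25, adjusted p = 0.0040). Pnpt1, the polynucleotide phosphorylase that degrades mitochondrial RNA, fell at week 7 (-0.32, SE 0.07, adjusted p = 0.0029) and at week 10 (-0.30, SE 0.07, adjusted p = 0.0071). Of 17 genes of mitochondrial rRNA modification, Rpusd4, a pseudouridine synthase, fell at week 7 (-0.58, adjusted p = 0.0030) and 0 were called at week 10. Of 16 regulators of mitochondrial biogenesis, Perm1 and Nrf1 fell at week 7 (-1.98 and -0.45) and Perm1 at week 10 (-2.05).

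The partners of the mitochondrial products in the ribosome and the respiratory chain showed small differences. Of 82 tested proteins of the mitochondrial ribosome, 4 rose at week 7 (Mrpl49, Mrps6, Mrps22 and Mrpl41) and 2 at week 10 (Mrps6 and Mrpl17), where 7.37% and 3.66% of all genes tested rose, with a median log2 fold change of 0.01 and 0.04 over the list. Of 36 nuclear subunits of complex I, Ndufab1 rose at both weeks (0.38 at each), and the list median was 0.17 and 0.08. The nuclear subunits of complexes III, IV and V, 9, 12 and 16 tested, had 0 calls in edgeR at either week and medians of 0.02 to 0.10. At an unadjusted p below 0.05 there were 2, 2 and 6 of them at week 7 and 2, 1 and 6 at week 10, limma-voom called 0, and DESeq2 called 3 of complex V at week 10. The 20 mitochondrial tRNA synthetases had 0 calls in edgeR and limma-voom, 5 and 2 at an unadjusted p below 0.05, and 1 call in DESeq2 at week 10. The mitochondrial mRNAs had medians of 0.80 at week 7 and 0.35 at week 10 over the 12 tested.

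Marker RNA of several cell types differed with the vector as well. Macrophage markers (18 genes, 13 called lower at week 7 and 15 at week 10) summed to 2434 to 2868 CPM in LRG1 mice, against 5530 to 7362 CPM in eGFP mice of week 7, and to 2233 to 3202 CPM against 3637 to 12338 CPM at week 10. Of 14 T cell markers, 13 were called lower at week 7 and 4 at week 10. They summed to 8.28 to 24.9 CPM in LRG1 mice and 56.2 to 110.7 CPM in eGFP mice of week 7. At week 10 the sums were 12.2 to 23.1 CPM and 26.9 to 43.5 CPM. Of all genes tested, 10.7% were called lower at week 7 and 5.24% at week 10. Of 15 mature adipocyte markers, 5 were called higher at week 7 and 3 at week 10, and of 12 endothelial markers 9 and 1. Of all genes tested, 7.37% and 3.66% were called higher. At week 7 mature adipocyte markers summed to 27631 to 34131 CPM in LRG1 mice and 19844 to 21178 CPM in eGFP mice, and endothelial markers to 620.0 to 856 and 340.5 to 455 CPM. At week 10 the adipocyte sums were 30324 to 32584 and 14644 to 27003 CPM. The endothelial sums of week 10 overlapped, at 615.3 to 955.8 and 302.1 to 628.9 CPM. The part of these cell types in the mitochondrial values was not tested. In whole tissue a change in the number of cells of a type and a change in RNA per cell cannot be told apart. Among the eGFP mice of week 10, macrophage markers summed to 11731 and 12338 CPM in replicates 1 and 3 and to 3637 and 4990 CPM in replicates 2 and 4. The mitochondrial mRNA shares of these 4 libraries were 2.71 and 2.68% in replicates 1 and 3, and 2.34 and 2.80% in replicates 2 and 4. Outside the 5 nuclear genes that were high in replicate 3, its share was 2.95%, and the others were at 2.35 to 2.80%. Those genes were singled out after their values were seen, and whether the shares go with the marker sums was not tested.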

How the data were processed

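RNA of eWAT was sequenced from 16 mice, 4 in each group, and each library was a separate mouse. Raw counts per gene were deposited by the authors, who trimmed reads with Cutadapt, aligned them with STAR to mm10 (GRCm38) and counted them with featureCounts. Versions, read length, strand setting, multi-mapping setting and RNA selection are not given in the sources used here. The deposited length of each gene was used for levels per kilobase. Differential expression was tested with edgeR 4.0.16 in R 4.3.3 (quasi-likelihood F test, 1 coefficient for each group, TMM factors of 0.847 to 1.1) over 20822 genes kept by filterByExpr. P-values were adjusted by Benjamini-Hochberg, and genes were called below 0.01. The study used this adjusted threshold for its heatmap, together with a cut-off on the log2 fold change that was not applied here. Standard errors are the log2 fold change over the root of F. DESeq2 1.42.0 and limma-voom (limma 3.58.1) were alternatives, as were other scalings, filters, sets of libraries, a replicate block and other denominators of the shares. Each procedure was tested on simulated data. Windows of 50 and 100 bases of the 37 mitochondrial transcripts were looked up in all nuclear GENCODE vM21 transcripts on either strand. Any mitochondrial gene could be named, with tRNA genes named where they were called, were highest or lowest per length, or had few counts, and of other lists up to 4 called genes with the smallest adjusted p. Members, lists and tests were chosen with earlier results of these data known. Marker lists of other cell types were given as sums of CPM.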

Additional observations from a re-analysis of the deposited data

Results flagged for a closer look

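In 11 of 108 groups of 4 libraries tested, 1 library lay further from the others than Dixon's 95% limit allows, where chance gives about 1 in 20. Replicate 1 of the LRG1 mice of week 7 accounted for 5 of them. Its ratio of mt-Rnr2 to mt-Rnr1 was 6.022 (8.812 to 9.22 in the others), and its mt-Nd6 count per 1000 plus-strand mRNA counts was 16.5 (12.96 to 13.47). It had 2666 CPM of mt-Nd5 (2124 to 2190), 572.9 CPM of mt-Nd6 (520 to 525.5) and 2.179 CPM of mt-Co2 (3.426 to 3.576). Replicate 3 of the same mice had 0.8767 CPM of mt-Nd3 (0.9385 to 0.9471) and 0.3572 CPM of mt-Nd4l (0.1894 to 0.2068). Replicate 3 of the LRG1 mice of week 10 had 0.653 CPM of mt-Nd4l (0.1441 to 0.2083). Among eGFP mice, replicate 3 of week 10 had 1.951 CPM of mt-Co3 (1.281 to 1.395), replicate 3 of week 7 had 11738 CPM of mt-Co1 (13485 to 13678), and replicate 4 of week 7 had 9.91 CPM of mt-Tc (8.225 to 8.464).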

How the results depend on the processing

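No mitochondrial gene fell in LRG1 mice under any alternative run. The 11 calls of week 7 became 18 at an adjusted p below 0.05, 8 on library size alone, 16 with DESeq2 and 13 with limma-voom, and 7 to 12 with 1 library left out. The 3 calls of week 10 became 1 on library size alone, 6 with DESeq2 and 6 at an adjusted p below 0.05. They became 0 in the 8 libraries compared alone and 0 to 4 with 1 library left out. On library size alone, 341 of all genes tested were called higher and 3636 lower at week 7, and 321 and 1137 at week 10. The share of all genes tested was not computed at an adjusted p below 0.05, with DESeq2 or limma-voom, or for other sets of libraries. Those counts therefore have no background to be read against. DESeq2 called 1 gene for the difference between weeks in the LRG1 effect and 1 between weeks in LRG1 mice, and library size alone called 1 between weeks in eGFP mice (mt-Ty). Library size alone moved the median log2 fold change of all genes to -0.15 at week 7 and the share of higher calls to 8.57% from 40.9%, and to 22% from 41.1% at week 10. Of nuclear counts alone, the difference (LRG1 minus eGFP) of the rRNA share was 9.11 percentage points at week 7, against 4.26 of all counts, that of the mRNA share 1.77 and 0.669 at weeks 7 and 10, against 0.984 and 0.426, and that of the tRNA share 0.00605 and 0.00369, against 0.00331 and 0.00242. Of counts outside mitochondrial rRNA, the mRNA share differed by 1.61 at week 7 and the tRNA share by 0.0055 and 0.00345. With 1 library left out, the differences ranged over 3.89 to 4.97 and 0.0615 to 1.38 for rRNA, 0.945 to 1.04 and 0.329 to 0.525 for mRNA, and 0.003 to 0.00367 and 0.00201 to 0.00267 for tRNA. With a replicate block the calls were 12 at week 7 and 2 at week 10, where mt-Te was lost. Mice with the same number did not deviate together (correlations of -0.2 to 0.142 over 24 pairs), and 2 of 16 libraries correlated best with their own number. Alternatives without the 5 nuclear genes or both libraries high in them were chosen after seeing the data. Counts were few for 6 mRNAs and most tRNAs, whose fold changes have wide errors. The unknown treatment of reads shared with nuclear copies limits mt-Nd4, mt-Co1 and the genes from mt-Co2 to mt-Nd4l, and may limit mt-Ts1 and mt-Td.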
